A study of Arabidopsis thaliana with 6 samples.

Results

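Sulfate enters plant cells through the SULTR transporters, membrane proteins that carry sulfate together with protons. In Arabidopsis thaliana, group 1 holds high-affinity carriers, group 2 low-affinity carriers of the vasculature, and group 3 carriers that include sulfate importers of the chloroplast envelope. Once inside, sulfate is activated with ATP and then either reduced to cysteine, from which methionine and glutathione are made, or used for sulfation. The 10 genes of groups 1 to 3 were examined here in mature pollen, out of 27827 features on the array: 3 genes of group 1, 2 of group 2 and 5 of group 3. They were taken by locus as the complete family. The family was chosen with results of these same arrays in view, and among the measured values it was chosen by was the higher signal of SULTR1;3 in NOT1+/- pollen. The changes of its members between the genotypes are therefore given as descriptions, without p-values, and support nothing beyond themselves. Where a member is said to be called, this states its place in the fit of all features and is no independent test of it.

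Pollen came from 2 genotypes, both in the Columbia 0 ecotype: plants heterozygous for a NOT1 mutation (NOT1+/-, 3 biological replicates) and wild-type plants (3 biological replicates). NOT1 is the scaffold of CCR4-NOT, the complex that removes poly(A) tails from mRNAs. About 300000 grains per sample were sorted by flow cytometry from material washed off open flowers, and 100 ng of total RNA was labelled for a 1-colour Affymetrix whole-transcript array strip. No age of the plants or kind of NOT1 mutation is given in the sources used here, and grains of a heterozygous plant segregate, so a NOT1+/- sample mixes grains with and without the mutant allele.

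NOT1 itself (AT1G02080) had intensities of 28.6, 31.8 and 32.6 in NOT1+/- pollen, against 47.6, 51.0 and 46.9 in wild-type pollen. The limma fit over all features gave a log2 fold change of -0.65 (SE 0.15) with an adjusted p of 0.029, while the exact two-sided permutation test over the 6 arrays gave p = 0.1, the smallest value that 3 against 3 arrays allow. Dropping any single array from the fit raised the adjusted p to between 0.0527 and 0.118, which ended the call (an adjusted p under 0.05). Over the whole array 8.84% of features were called higher and 3.22% lower, or 12.1% in either direction. Array medians lay between 12.0 and 13.1 and the values carry no detection calls. The upper part of the distribution differed more: the 95th percentile was 193 to 202 on NOT1+/- arrays and 133 to 141 on wild-type arrays. More features thus reached high values in NOT1+/- pollen, which does not say that features bright in wild type rose. The array maxima were alike, at 4092 to 4368 on NOT1+/- arrays and 3983 to 4229 on wild-type arrays. Quantile normalization, among the alternatives below, makes the distributions of the arrays alike. With it 2201 features were called higher and 1991 lower, against 2461 and 896 in the main fit, so the shares called depend on the scaling. Precision is limited by having 3 arrays per genotype. The 7 vegetative cell markers of pollen lay between 191 and 3498, and the 4 sperm markers between 13.5 and 268, with DUO1 the dimmest. In contrast, the 6 leaf markers lay between 4.86 and 16.8, the 3 phloem markers between 5.42 and 32.2, the 8 tapetum markers between 4.61 and 46.2, and the 2 markers of petal and stamen identity between 5.42 and 22.2. The minimum of every array was 1, so no marker could be at 0, and low values do not show whether a transcript was present. Summed, the vegetative markers gave 12512 to 13281 in NOT1+/- and 10681 to 11404 in wild type. Of them 3 of 7 were called higher, beside 8.84% of all features. PPME1 rose most, from a mean of 1269 in wild type to 2705 in NOT1+/-. The uncalled ANX2, VGD1, AHA8 and ACA9 had log2 fold changes of -0.29, 0.09, -0.02 and 0.06. The sperm markers summed to 327 to 509 in NOT1+/- and 267 to 287 in wild type. Of these 2 of 4 were called higher, beside 8.84% of all features, and GEX2 (-0.09) and HAP2 (0.31) were not called. The part of either cell type in the differences described here was not tested. Across the array the changes had a median of -0.10 log2 units.

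SULTR1;3 and SULTR3;5 were dim in wild-type pollen and bright in NOT1+/- pollen, SULTR3;1 had less signal in NOT1+/- pollen, and the other 7 members had low signal in both genotypes, between 8.61 and 33.6. A feature was called when its limma p-value, adjusted over all 27827 features, was under 0.05. By that rule 2 of 10 members were called higher and 1 of 10 lower, beside 8.84% and 3.22% of all features. The median log2 fold change of the 10 members was 0.08. The groups did not overlap for 3 members above and 1 below wild type, beside 14.9% and 16.9% of all features. Nothing is read from these counts, since the family was chosen with this comparison known.

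SULTR1;3 (AT1G22150_at) is a high-affinity transporter of phloem companion cells, where it serves redistribution of sulfate between organs. Its intensity was 283, 270 and 192 in NOT1+/- pollen, against 11.6, 12.1 and 13.3 in wild-type pollen. The 3 NOT1+/- arrays were all far above the 3 wild-type arrays, and NOT1+/- replicate 3 was the lowest of its group. The means were 248 ± 49.5 in NOT1+/- and 12.3 ± 0.847 in wild type (SD, n = 3 arrays each), a log2 fold change of 4.31 (SE 0.20, 95% interval 3.86 to 4.77) or 19.9-fold. Among all features, 747 (2.68%) were called at least 4-fold higher. The wild-type signal lay at the array median and no background estimate is given, so the size of the fold depends on how dim values are treated: with 16 units added before log2 the log2 fold change was 3.20. Whole-grain RNA cannot tell more transcript per grain from a larger share of grains that hold the transcript. The summed signal of the 3 phloem markers was 31.9 to 45.1 in NOT1+/- and 31.9 to 53.4 in wild type, so the ranges overlapped.

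The other members of group 1 are high-affinity carriers that take up sulfate at the root surface. SULTR1;2 (AT1G78000_at) had 26.6, 26.6 and 33.6 in NOT1+/- pollen, against 28.3, 13.2 and 16.6 in wild-type pollen. The groups overlapped because wild-type replicate 1 lay among the NOT1+/- arrays. A log2 fold change of 0.65 (SE 0.29, 95% interval -0.019 to 1.31) was not called. Without wild-type replicate 1 it was 0.96 and was called. SULTR1;1 (AT4G08620_at), which is strongly induced by sulfate shortage in roots, had 12.8, 16.3 and 14.7 in NOT1+/- pollen, against 15.8, 17.1 and 16.8 in wild-type pollen, with a log2 fold change of -0.19 (SE 0.16). Its groups overlapped as well. The ratio of SULTR1;3 to SULTR1;2 within an array is not changed by multiplying an array by 1 factor, although a rescaling that depends on intensity can change it. On the log2 scale this ratio was 3.09 ± 0.50 in NOT1+/- and -0.58 ± 0.62 in wild type (SD, n = 3 each), and no NOT1+/- array overlapped a wild-type array. Against SULTR1;1 the ratio was 4.08 ± 0.38 in NOT1+/- and -0.42 ± 0.081 in wild type. The changes of these ratios follow from the log2 fold changes of the paired genes and add no support to them.

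Group 2 stayed near the array medians. SULTR2;1 (AT5G10180_at), a low-affinity carrier of the vasculature that serves transport from root to shoot, had 12.1, 11.4 and 15.6 in NOT1+/- pollen, against 16.6, 16.1 and 11.7 in wild-type pollen, and the groups overlapped (log2 fold change -0.18, SE 0.21). SULTR2;2 (AT1G77990_at), the other low-affinity vascular carrier, had 10.7, 11.1 and 11.7 in NOT1+/- pollen, against 10.4, 9.76 and 9.14 in wild-type pollen. Its groups did not overlap, but the shift was small (log2 fold change 0.19, SE 0.15, 95% interval -0.15 to 0.54) and was not called. It was -0.078 with values under the array median raised to that median.

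**Figure D1:**
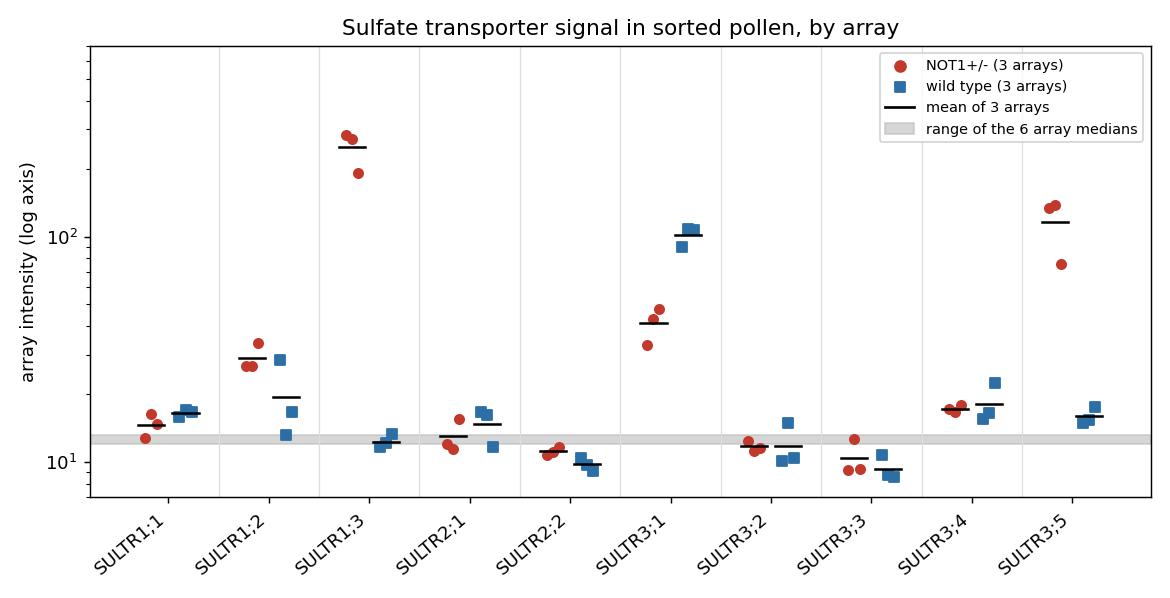
Array intensity (log axis) of the 10 sulfate transporters, with NOT1+/- arrays as red circles left of wild-type arrays as blue squares, black lines for means of 3 arrays and a grey band for the range of the 6 array medians (12.0 to 13.1). The 2 called rises lie near the band in wild type and far above it in NOT1+/-, the called fall lies lower in NOT1+/-, and the other 7 members lie between 8.61 and 33.6 on all arrays.

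Group 3 held changes in both directions. SULTR3;5 (AT5G19600_at), a partner that raises transport by SULTR2;1 in root vasculature, had 134, 138 and 75.7 in NOT1+/- pollen, against 15.0, 15.4 and 17.5 in wild-type pollen. All 3 NOT1+/- arrays were above all wild-type arrays, and replicate 3 was again the lowest of the NOT1+/- group. The means were 116 ± 34.7 in NOT1+/- and 16.0 ± 1.36 in wild type (SD, n = 3 each), a log2 fold change of 2.81 (SE 0.25, 95% interval 2.22 to 3.40) or 7.01-fold. With 16 units added before log2 it was 2.01. The call was lost in the unequal-variance test per feature.

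SULTR3;1 (AT3G51895_at), a sulfate importer of the chloroplast envelope, had 33.2, 43.0 and 47.8 in NOT1+/- pollen, against 89.9, 108 and 107 in wild-type pollen, and every NOT1+/- array was below every wild-type array. The means were 41.3 ± 7.47 in NOT1+/- and 102 ± 10.2 in wild type (SD, n = 3 each). This left 40.3% of the wild-type level, a log2 fold change of -1.31 (SE 0.19, 95% interval -1.76 to -0.86). Signal was above the array medians in both genotypes. The call was lost in the unequal-variance test per feature. The summed leaf marker signal was 43.8 to 54.9 in NOT1+/- and 56.1 to 67.5 in wild type. Of the 6 leaf markers, 1, CAB2, was called lower, beside 3.22% of all features. CAB2 was dim, with 5.74, 6.53 and 5.35 in NOT1+/- and 8.17, 11.6 and 9.51 in wild type, below the array medians. The remaining leaf markers were not called, with log2 fold changes from -0.67 to 0.05. The part of leaf RNA in the fall of the transporter was not tested. RBCS1A, a small Rubisco subunit and abundant leaf transcript, was at 8.61 to 11.7 in NOT1+/- and 10.1 to 16.8 in wild type, near the array medians.

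The remaining 3 members of group 3 were not called. SULTR3;4 (AT3G15990_at), implicated in the distribution of phosphate, had 17.1, 16.7 and 18.0 in NOT1+/- pollen, against 15.5, 16.6 and 22.4 in wild-type pollen (log2 fold change -0.06, SE 0.19). SULTR3;2 (AT4G02700_at) had 12.4, 11.3 and 11.6 in NOT1+/- pollen, against 10.1, 14.9 and 10.4 in wild-type pollen (0.01, SE 0.19). SULTR3;3 (AT1G23090_at) had 9.27, 12.6 and 9.30 in NOT1+/- pollen, against 10.7, 8.77 and 8.61 in wild-type pollen (0.14, SE 0.19). Their groups overlapped, and the 95% intervals reached from -0.49 to 0.38, from -0.44 to 0.46 and from -0.30 to 0.59, so changes of up to about that size are within the error. Within group 3 the log2 ratio of SULTR3;5 to SULTR3;1 was 1.45 ± 0.70 in NOT1+/- and -2.67 ± 0.12 in wild type (SD, n = 3 each). Signals of different probe sets are not on one scale of RNA amount, so only the change of such a ratio between genotypes can be read. That change follows from the log2 fold changes of the paired genes given above and adds no support to them.

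**Figure D2:**
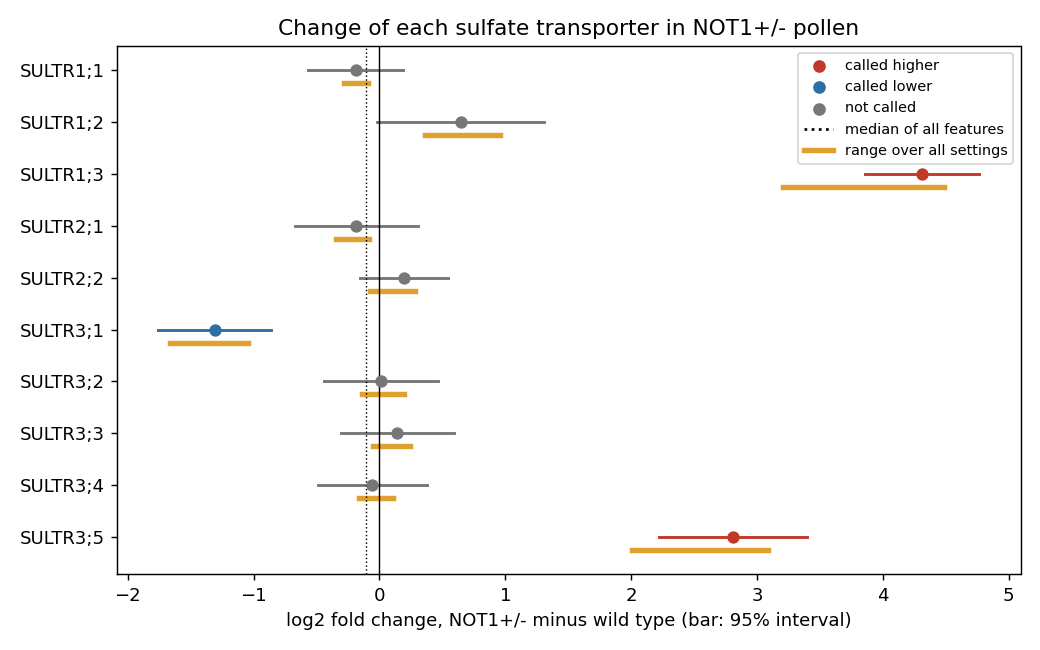
Log2 fold change of each transporter, NOT1+/- minus wild type (points, with 95% intervals as thin bars), with the range over the main and alternative settings as orange bars below and the median of all features as a dotted line. SULTR1;3 (4.31) and SULTR3;5 (2.81) lie to the right, SULTR3;1 (-1.31) to the left, and the other 7 between -0.19 and 0.65.

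The rank of a gene among all features of its own array describes the same values without a comparison of intensity between arrays. Ranks follow from the intensities given above, so they are no separate support for the changes. SULTR1;3 stood at percentiles 96.1, 95.9 and 94.97 in NOT1+/- pollen, against 42.8, 44.9 and 54.5 in wild-type pollen. SULTR3;5 stood at 93.2, 93.3 and 89.9 in NOT1+/- pollen, against 58.2, 59.4 and 68.2 in wild-type pollen. Both genes thus ranked among the brightest features in NOT1+/- pollen and near the middle of the array in wild-type pollen. SULTR3;1 stood at 81.0, 84.8 and 86.1 in NOT1+/- pollen, against 92.9, 93.6 and 93.7 in wild-type pollen, so it was still among the brighter features. SULTR2;2 stood in the lower part of the arrays, at 41.9, 44.7 and 48.2 in NOT1+/- pollen and 35.4, 30.8 and 29.7 in wild-type pollen. SULTR1;2 had the widest wild-type spread of the family, with percentiles from 50.5 to 80.9 and an SD of 0.56 log2 units between wild-type arrays.

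**Figure D3:**
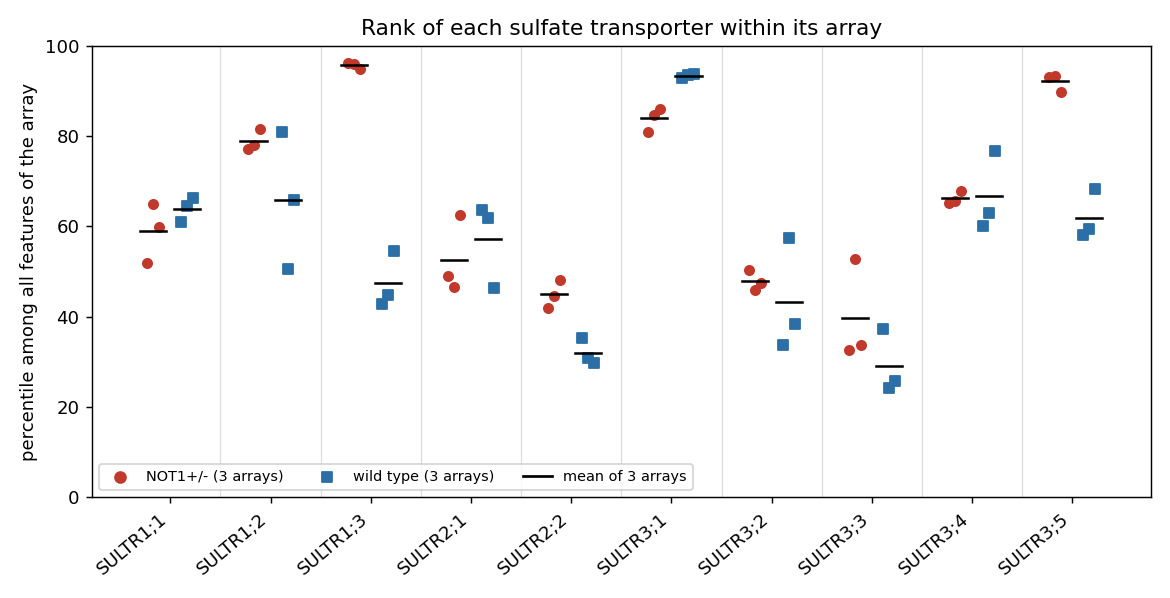
Percentile of each transporter among all 27827 features of the same array, NOT1+/- arrays (red circles) left of wild-type arrays (blue squares), with means as black lines. SULTR1;3 lies at 94.97 to 96.1 in NOT1+/- and 42.8 to 54.5 in wild type, while SULTR3;1 lies at 81.0 to 86.1 in NOT1+/- and 92.9 to 93.7 in wild type.

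Replicate 3 gave the lowest NOT1+/- signal for both called rises of the family. The same array was lowest for 1908 of the 2461 features called higher over the whole array, or 77.5%, beside 36.3% of all features. Without it the log2 fold changes were 4.49 for SULTR1;3, 3.09 for SULTR3;5 and -1.42 for SULTR3;1.

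The features most like SULTR1;3 were those with the smallest root-mean-square difference of log2 intensity from it over the 6 arrays. AT2G16505 differed by 0.12 log2 units, with 290, 316 and 208 in NOT1+/- pollen, against 11.0, 13.1 and 13.9 in wild-type pollen. ATOEP16-2, an outer envelope protein of plastids, differed by 0.19, with 249, 250 and 182 in NOT1+/- pollen, against 12.5, 9.58 and 11.7 in wild-type pollen. AT4G16660 also differed by 0.19, with 239, 248 and 158 in NOT1+/- pollen, against 13.8, 11.3 and 12.6 in wild-type pollen. Since they were picked for likeness on these 6 arrays, their sharing the pattern of SULTR1;3 is given by the choice.

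Genes beside the transporters on the chromosome were then examined, to see whether called members stood alone in their stretch of the genome. Of 19 genes directly before or after a member in the order of the reference gene table, 16 had a feature, of which 3 (18.8%) were called higher and 1 (6.25%) lower, beside 8.84% and 3.22% of all features. Both neighbours of SULTR1;3 were uncalled: AT1G22140 had 25.6, 16.5 and 22.1 in NOT1+/- pollen, against 19.8, 18.4 and 19.5 in wild-type pollen, and AT1G22160 had a log2 fold change of -0.12. The gene after SULTR3;5 is GNL2, GNOM-like 2, an ARF exchange factor that acts in pollen. It had 163, 156 and 131 in NOT1+/- pollen, against 39.9, 38.6 and 46.3 in wild-type pollen (log2 fold change 1.85, SE 0.17, limma adjusted p = 2.6e-04). The gene before SULTR3;1 is AT3G51890, named clathrin light chain 3 in the table. It had 16.0, 17.4 and 20.6 in NOT1+/- pollen, against 37.9, 48.0 and 43.7 in wild-type pollen (-1.27, SE 0.18, limma adjusted p = 0.0025). Each called member of group 3 thus had 1 neighbour called in its own direction and SULTR1;3 had none. The gene before SULTR3;5 had no feature, and HSFA7A, after SULTR3;1, was not called (-0.15). No test was made of whether neighbours share calls more often than other genes.

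The other called neighbours stood beside members that were not called. AGL66, a MADS-box factor of pollen, precedes SULTR2;2 and had 768, 877 and 711 in NOT1+/- pollen, against 216, 210 and 216 in wild-type pollen (log2 fold change 1.87, SE 0.16, limma adjusted p = 1.7e-04). AT4G08630 follows SULTR1;1 and had 245, 305 and 209 in NOT1+/- pollen, against 107, 132 and 132 in wild-type pollen (1.03, SE 0.20, limma adjusted p = 0.012). This call was lost under quantile normalization, in the unequal-variance test per feature and without NOT1+/- replicate 1. The other 12 neighbours were uncalled, with log2 fold changes from -0.39 to 0.81. NET1C, an actin-binding protein gene that follows SULTR3;2, had the highest of these.

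**Figure D4:**
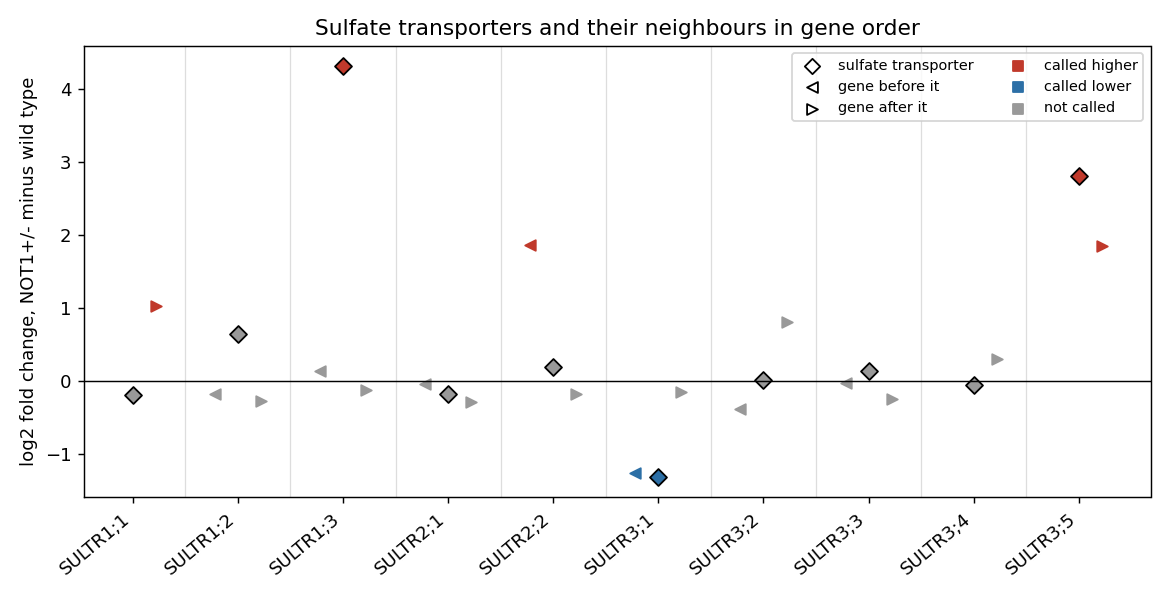
Log2 fold change, NOT1+/- minus wild type, of each transporter (diamonds) and of the genes directly before and after it in gene order (left- and right-pointing triangles), coloured by call. SULTR1;3 (4.31) stands between uncalled neighbours, whereas SULTR3;5 (2.81) and SULTR3;1 (-1.31) have a neighbour called in the same direction.

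The steps that follow sulfate uptake were described with 56 other genes of sulfur metabolism, of which 12 (21.4%) were called higher, 2 (3.57%) lower and 42 not, beside 8.84% and 3.22% of all features. Their median log2 fold change was 0.09. This list was drawn up with earlier results of these data known. Its counts, in total and by step, are therefore descriptions, and nothing is read from them. The adjusted p-values of its genes state their place in the fit of all features. The number called higher was 7 without NOT1+/- replicate 1 and also 7 without NOT1+/- replicate 2, and the number called lower was 1 without NOT1+/- replicate 1 or 2 or any 1 wild-type array. The 4 further transporters on the list, the vacuolar sulfate exporters SULTR4;1 and SULTR4;2 and the molybdate transporters MOT1 and MOT2, were not called, with log2 fold changes from -0.39 to 0.25. SULTR4;1 had 32.6, 45.7 and 32.7 in NOT1+/- pollen, against 33.2, 36.3 and 35.9 in wild-type pollen.

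None of the 8 genes of sulfate activation and reduction was called. The ATP sulfurylases, which activate sulfate, were dim, with log2 fold changes from -0.28 to 0.44. Among the 3 adenylylsulfate reductases, the bright ones did not pass: APR1 had 385, 444 and 358 in NOT1+/- pollen, against 297, 327 and 346 in wild-type pollen, and APR3 had 221, 228 and 228 in NOT1+/- pollen, against 171, 193 and 208 in wild-type pollen. The groups did not overlap for either gene, as for 14.9% of all features with NOT1+/- above wild type. The shifts (0.29 and 0.25) were not called (limma adjusted p = 0.32 and 0.37). By rank within the array the direction was opposite. APR1 stood at percentiles 97.0, 97.4 and 96.9 in NOT1+/- pollen, against 97.6, 97.7 and 97.8 in wild-type pollen. APR3 stood at 95.3, 95.4 and 95.6 in NOT1+/- pollen, against 96.0, 96.2 and 96.5 in wild-type pollen.

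The sulfation branch had 2 rises and 1 fall among 7 genes, or 28.6% and 14.3%, beside 8.84% and 3.22% of all features. APK3, the cytosolic kinase that makes the sulfate donor PAPS, had 435, 415 and 260 in NOT1+/- pollen, against 112, 121 and 122 in wild-type pollen (log2 fold change 1.61, SE 0.22, limma adjusted p = 0.0024). The plastid enzyme APK4 had 264, 310 and 261 in NOT1+/- pollen, against 146, 171 and 157 in wild-type pollen (0.81, SE 0.16, limma adjusted p = 0.014), a call that was lost under quantile normalization and without NOT1+/- replicate 2 or wild-type replicate 1. APK1 had 433, 448 and 477 in NOT1+/- pollen, against 318, 334 and 348 in wild-type pollen, without passing (0.44, limma adjusted p = 0.11). By rank within the array its direction was opposite, at percentiles 97.3, 97.4 and 97.6 in NOT1+/- pollen, against 97.7, 97.8 and 97.8 in wild-type pollen. TPST, which sulfates tyrosines of signalling peptides, fell to 130, 135 and 147 in NOT1+/- pollen, against 221, 215 and 240 in wild-type pollen (-0.71, SE 0.15, limma adjusted p = 0.020). Of the fits without 1 array, TPST was called only in that without NOT1+/- replicate 3.

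In cysteine and glutathione synthesis most calls rested on dim signal. SERAT1;1, a cytosolic serine acetyltransferase, was the bright one, with 395, 401 and 378 in NOT1+/- pollen, against 259, 271 and 274 in wild-type pollen (log2 fold change 0.55, SE 0.14, limma adjusted p = 0.049). Its direction turned under quantile normalization (-0.094), and no fit with 5 arrays called it. OASC, the mitochondrial cysteine synthase, had 14.0, 17.8 and 8.78 in NOT1+/- pollen, against 3.70, 2.91 and 2.17 in wild-type pollen (2.18, SE 0.30, limma adjusted p = 0.0024). GSH1 and GSH2, the 2 enzymes of glutathione synthesis, averaged 17.2 ± 2.67 and 12.1 ± 1.77 in NOT1+/- pollen and 9.05 ± 0.752 and 6.95 ± 0.359 in wild-type pollen (SD, n = 3), with log2 fold changes of 0.92 and 0.79 (limma adjusted p = 0.012 and 0.021). The wild-type means of OASC, GSH1 and GSH2 lay below the array medians, and with values raised to those medians none of the 3 was called. The call of GSH1 was also lost without NOT1+/- replicate 1, and GSH2 was called only without NOT1+/- replicate 3 among the fits to 5 arrays.

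Methionine and S-adenosylmethionine genes gave 4 calls among 7, with 3 (42.9%) higher and 1 (14.3%) lower, beside 8.84% and 3.22% of all features. ATMS1, a methionine synthase, had 512, 506 and 382 in NOT1+/- pollen, against 87.6, 89.5 and 84.6 in wild-type pollen (log2 fold change 2.41, SE 0.17, limma adjusted p = 8.0e-05). The 4 S-adenosylmethionine synthetases differed among themselves. MTO3 had 55.8, 57.9 and 30.2 in NOT1+/- pollen, against 8.21, 9.53 and 6.65 in wild-type pollen (2.52, SE 0.28, limma adjusted p = 7.5e-04), from a wild-type level below the array medians. MAT3, a synthetase known for its role in pollen tubes, had 253, 228 and 181 in NOT1+/- pollen, against 111, 102 and 87.8 in wild-type pollen (1.13, SE 0.19, limma adjusted p = 0.0062). The call of MAT3 was lost under quantile normalization and in the unequal-variance test per feature. SAM1 fell to 32.9, 34.5 and 41.3 in NOT1+/- pollen, against 71.2, 72.2 and 70.5 in wild-type pollen (-0.98, SE 0.16, limma adjusted p = 0.0054). SAM2 was not called (0.03).

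Of the 9 genes named for their response to sulfur shortage, 2 (22.2%) were called higher and none lower, beside 8.84% and 3.22% of all features. LSU4, of the small LSU (response to low sulfur) family, had 1105, 895 and 870 in NOT1+/- pollen, against 65.8, 54.8 and 66.3 in wild-type pollen (log2 fold change 3.94, SE 0.18, limma adjusted p = 8.8e-06). SHM7, a serine hydroxymethyltransferase, had 124, 151 and 103 in NOT1+/- pollen, against 48.5, 75.4 and 65.2 in wild-type pollen (1.00, SE 0.23, limma adjusted p = 0.026). The call of SHM7 was lost under quantile normalization, in the unequal-variance test per feature, and without NOT1+/- replicate 1 or 2 or wild-type replicate 1. The relatives LSU1, LSU2 and LSU3 had log2 fold changes of -0.10, -0.79 and 0.11 and were not called, nor were SDI1, SDI2 and BGLU28. SLIM1, the transcription factor of the sulfur deficiency response, had 43.6, 43.7 and 48.8 in NOT1+/- pollen, against 39.6, 40.4 and 50.4 in wild-type pollen (0.07, limma adjusted p = 0.84). LSU4 and LSU2, which have neighbouring locus numbers, thus gave log2 fold changes of opposite sign, although that of LSU2 was not called.

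Of the sulfolipid genes, SQD1 averaged 23.1 ± 0.656 in NOT1+/- pollen and 12.4 ± 3.21 in wild-type pollen (SD, n = 3). Its log2 fold change was 0.94 (SE 0.21, limma adjusted p = 0.025), and among the fits to 5 arrays it was called only without wild-type replicate 1. SQD2 was not called. Sulfite oxidase, SOX, had a log2 fold change of 0.27 and was not called.

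**Figure D5:**
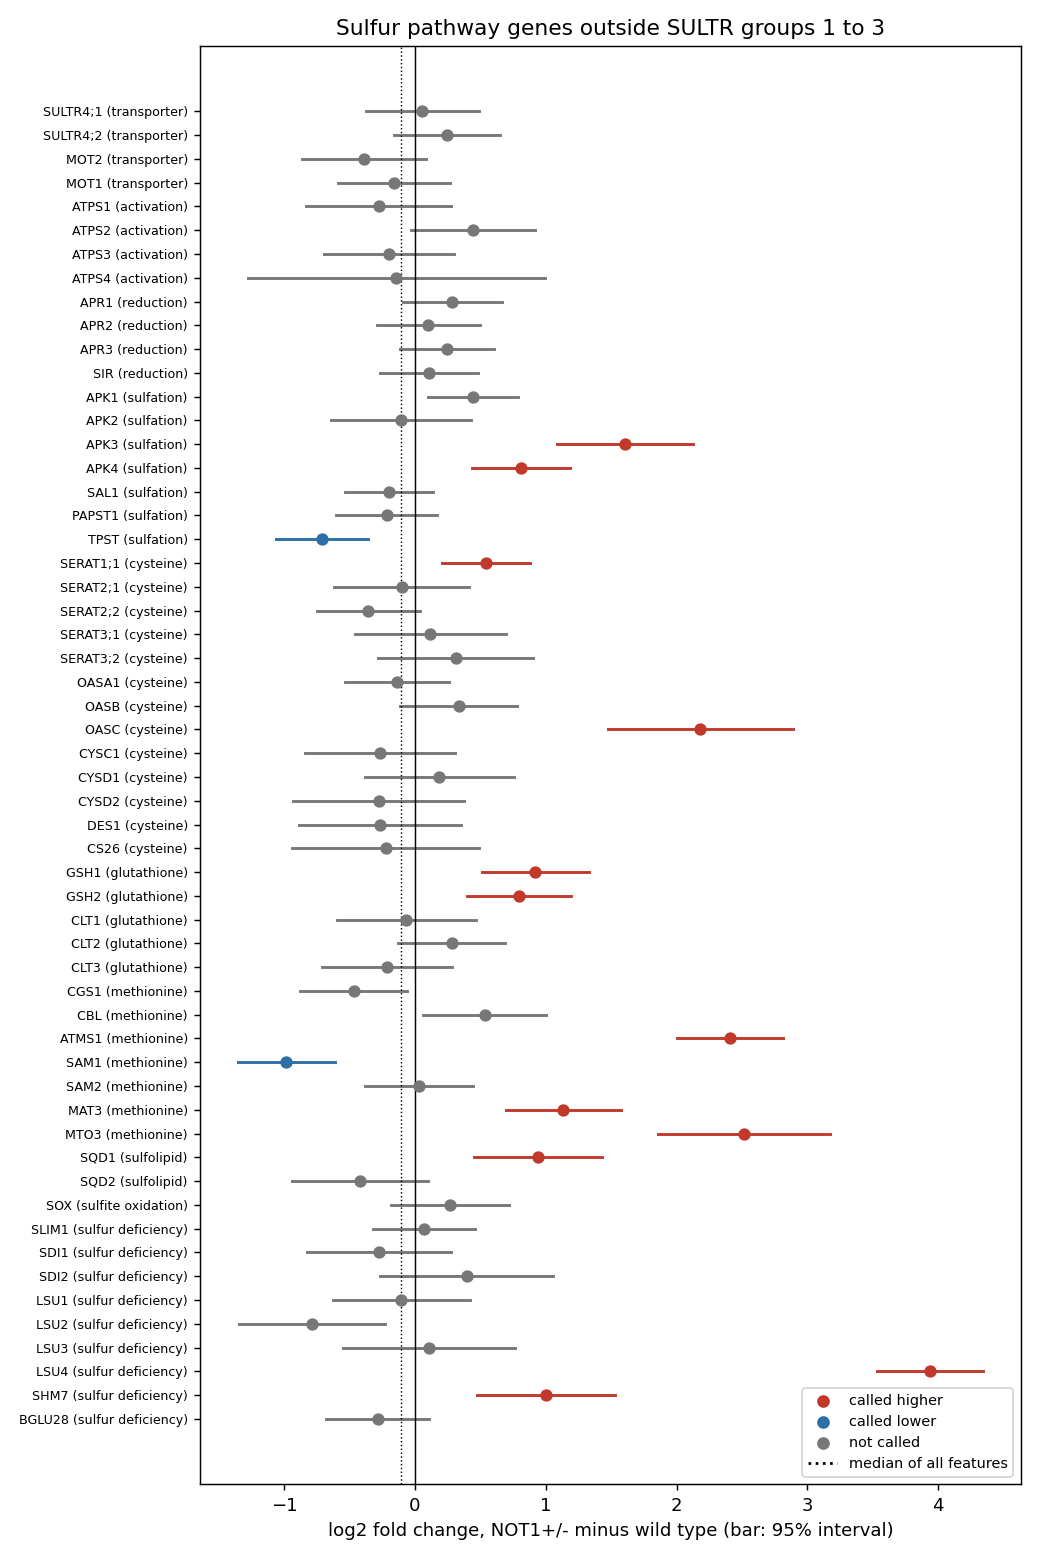
Log2 fold change, NOT1+/- minus wild type, with 95% intervals, of the 56 sulfur pathway genes outside SULTR groups 1 to 3, ordered by step and coloured by call. LSU4 (3.94), MTO3 (2.52), ATMS1 (2.41), OASC (2.18) and APK3 (1.61) lie farthest to the right, and SAM1 (-0.98) and TPST (-0.71) are the called falls.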

How the data were processed

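Sorted mature pollen of NOT1+/- and wild-type plants was measured on 3 arrays each. The authors deposited intensity values on a linear scale, 1 per locus and array. Per the submitters' processing notes the software was Affymetrix Expression Console. The sources used here give neither its version nor the background correction, summarisation and scaling. The log2 of each value was fitted with limma 3.58.1 in R 4.3.3 (lmFit, eBayes, no filter or offset), with Benjamini-Hochberg adjustment over the 27827 features. The fit was first tested on simulated data. Group values are arithmetic means ± SD. The members, the lists and the naming rule (all members, called pathway genes and called neighbours, the 3 features nearest SULTR1;3) were chosen with earlier results of these data known. Of the features, 27241 matched the TAIR10.1 gene table, used for names and gene order only; all 10 members did. Names of 10 members and 48 of the 56 pathway genes stand in that table and the others are from general knowledge. No member, pathway gene or neighbour shares its 6 values with another feature. Same-numbered replicates are not stated to share a plant or day. The alternatives were a replicate block, other variance models, 3 rescalings, a filter, an offset, a floor, an unequal-variance test and leaving out each array. Figures used matplotlib 3.10.9.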

Additional observations from a re-analysis of the deposited data

How the results depend on the processing

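Over the 15 alternatives the log2 fold change was 3.20 to 4.49 for SULTR1;3, 2.01 to 3.09 for SULTR3;5 and -1.67 to -1.04 for SULTR3;1; all use the arrays the family was chosen on, so these ranges show only the effect of processing. In the unequal-variance test per feature SULTR3;5 (2.81) and SULTR3;1 (-1.31) were not called, so that members called higher numbered 1 and lower 0, and pathway genes 5 and 1. Pathway calls lost in that test were those of APK3, OASC, GSH1, GSH2, MTO3, MAT3, SAM1, SQD1 and SHM7. The count of 5 higher includes a pathway gene that the main fit did not call. Of the 7 uncalled members, 6 were called in no alternative, and SULTR1;2 was called without wild-type replicate 1. With 16 units added before log2, 4 pathway genes were called lower. Under quantile normalization 8 pathway genes were called higher and 3 lower. Leaving out 1 array gave 7 to 10 pathway genes higher and 1 to 2 lower. NOT1 missed the threshold with the replicate number as a block (-0.65, adjusted p = 0.070), with median centring (-0.57, 0.055) and without any 1 array (-0.68 to -0.59). Among called genes, the directions that turned were those of SERAT1;1 under quantile normalization (-0.094) and of GSH2 with dim values raised to the array median (-0.012). Of the uncalled members, SULTR2;2, SULTR3;2, SULTR3;3 and SULTR3;4, with values near 0, changed sign in at least 1 alternative. With the block 2163 features were called higher and 555 lower, 11 and 2 of them pathway genes: SERAT1;1 (adjusted p = 0.103) and TPST (-0.71, 0.0507) lost their calls and LSU2 (-0.79, 0.0457) was called lower. The 3 called members were called with the block too. Same-numbered replicates had deviations that correlated at 0.11, 0.13 and -0.013, against -0.21 to 0.093 for different numbers. These values do not settle whether the numbers pair samples. The labels do not state what a number shares, so the main fit does not pair samples. Group sizes of 3 and the unknown background limit what can be said of dim members.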
